A study of Mus musculus with 9 samples.

Results

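The mitochondrial ribosomal protein genes were described in single-cell RNA sequencing of mouse kidney. They were taken by symbol, as every gene whose name begins with Mrpl or Mrps followed by a digit and holds no hyphen. This rule found 78 of the 32427 genes in the deposited feature lists, and these 78 genes are called the members below. Kidneys came from 9 male C57BL/6 mice, 3 per group, that were 6 weeks old at the start and were examined at week 8. Control mice received saline. AKI-CKD mice received cisplatin at 8 mg/kg by intraperitoneal injection once a week for 4 injections, which injures the tubules acutely and leads on to chronic disease. AKI-CKD + EGT mice received the same cisplatin together with ergothioneine (EGT), a sulphur-containing antioxidant taken up from the diet, at 0.5 mg/mL in the drinking water. The ergothioneine was given from shortly before the first cisplatin injection to the end. All mice were of 1 strain and 1 sex, and part of a kidney of each mouse was dissociated into single cells, so the levels below are those of the cells that survived dissociation.

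Mitochondria keep a small genome of their own, and the messages it encodes are translated inside the organelle by the mitochondrial ribosome. The proteins of that ribosome are all encoded in the nucleus, made in the cytosol and imported, whereas its ribosomal RNAs are transcribed from mitochondrial DNA. Its products are core subunits of the respiratory chain and of the ATP synthase. Kidney tubules, above all the proximal tubule (PT), the thick ascending limb of the loop of Henle (LOH) and the distal convoluted tubule (DCT), reabsorb salt and solutes with ATP from oxidative metabolism and are among the cells richest in mitochondria. Cisplatin accumulates in the proximal tubule and damages nuclear and mitochondrial DNA.

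Of 216680 barcodes, 196925 cells were kept after requiring 1000 or more UMIs (unique molecular identifiers, each counting 1 captured molecule), 500 or more genes and a mitochondrial share of no more than 15%. The libraries held between 70106161 and 101525691 UMIs. The mitochondrial limit removed between 0.909% of the cells of Control replicate 3 and 27.7% of those of AKI-CKD + EGT replicate 3. Control replicate 1 came second at 17.0%, and AKI-CKD + EGT replicate 2 was next at 7.94%. Clusters were named from marker genes. PT cells made up 154237 of the kept cells, DCT cells 12610 and LOH cells 7380, and 10 further types held between 553 and 3687 cells each. The other 6186 kept cells stayed unnamed. One of the 3 DCT clusters, with 4965 cells, was led by S100g, Calb1 and Klk1, which also mark the connecting tubule. Clustered without correction for library differences, 3598 cells with these 3 genes among the top 10 were named collecting duct principal cells. PT cells were 77.3% to 80.1% of the kept cells in Control mice, 81.7% to 89.1% in AKI-CKD mice and 52.3% to 81.8% in AKI-CKD + EGT mice. Cdkn1a, a p53 target induced by DNA damage, was called higher in PT cells of AKI-CKD mice than of Control mice, by 3.51 on the log2 scale (SE 0.47, edgeR adjusted p = 0.0292).

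Every member was detected in every mouse. In the sums of all kept cells, scaled by TMM (a trimmed mean that sets the library sizes against each other) to CPM (counts-per-million), the median member stood at 92.8 CPM as a mean of the 9 mice, and the members ranged from 17.7 to 482 CPM. These are counts of molecules captured at the 3′ end and are not divided by gene length. The highest were Mrps21, Mrpl12, Mrpl14, Mrpl42, Mrpl20 and Mrpl2, which together supplied 22.4% of the summed level. Mrps21 is a protein of the small subunit and stood at 482 CPM. Mrpl12, which forms the stalk that recruits translation factors and also binds the mitochondrial RNA polymerase, stood at 395 CPM. The lowest were Mrps2 at 17.7, Mrps27 at 17.8 and Mrpl1 at 20.02 CPM.

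The list has a few members with particular roles. Mrps18a, Mrps18b and Mrps18c are 3 nuclear copies of 1 bacterial protein, of which Mrps18a sits in the large subunit, as does Mrps30 in spite of its name. Mrps18c stood at 115, Mrps18a at 110 and Mrps18b at 49.3 CPM in all kept cells. Mrps30 stood at 21.5 CPM. Mrpl58 (also known as Ict1), a peptidyl-tRNA hydrolase that has become a ribosomal protein, stood at 108 CPM. Mrps36, now regarded as a subunit of the α-ketoglutarate dehydrogenase complex rather than of the ribosome, stood at 76.0 CPM. Grouped by symbol, with Mrps18a and Mrps30 moved to the large subunit, 51 members are counted below as large subunit and 27 as small subunit, Mrps36 among the latter for its name only. By the number in the symbol, 46 of the 78 members are counted as having a counterpart in the bacterial ribosome. The other 32, Mrps36 among them, are counted as specific to mitochondria. This rule by number was not checked against protein sequences.

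Among the cell types of Control mice, the summed level of the members was highest in LOH and cycling cells and lowest in collecting duct principal cells (CD-PC). The level given here is the sum over the 78 members in CPM of the UMIs of the cell type, without TMM scaling, and every summed level below is on this plain scale. LOH cells stood at 9807 ± 610 (SD, n = 3). Cycling cells, with only 49 to 65 cells per Control mouse, followed at 9732 ± 714. DCT cells stood at 9240 ± 608 and collecting duct intercalated cells (CD-IC) at 8754 ± 340. PT cells stood at 8258 ± 292, thin limb cells at 8237 ± 455 and podocytes at 8234 ± 188. B cells at 7309 ± 172, stromal cells at 7213 ± 259, macrophages at 7111 ± 259, endothelial cells at 6865 ± 301, T cells at 6850 ± 414 and CD-PC cells at 6518 ± 223 came last. Neighbours in this order overlapped between mice. The exception was the step from podocytes to B cells, where the lowest Control mouse for podocytes was at 8063 and the highest for B cells at 7491. This gap depended on the denominator. B cells held 153064 CPM of cytosolic ribosomal protein UMIs and podocytes 71817, and with mt-, ribosomal protein and Malat1 UMIs left out of the total the Control mice spanned 9363 to 9577 for podocytes and 8978 to 9523 for B cells. Between the ends the ranges were apart, since the lowest Control mouse for LOH cells was at 9439 and the highest for CD-PC cells at 6684. Cell types of 1 mouse share a library, and UMIs of PT markers were found in LOH and DCT cells too, so these levels are described without a test. In LOH cells of Control mice the 15 PT markers together took 80444 to 89314 CPM, against 117229 to 145298 in PT cells.

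**Figure D1:**
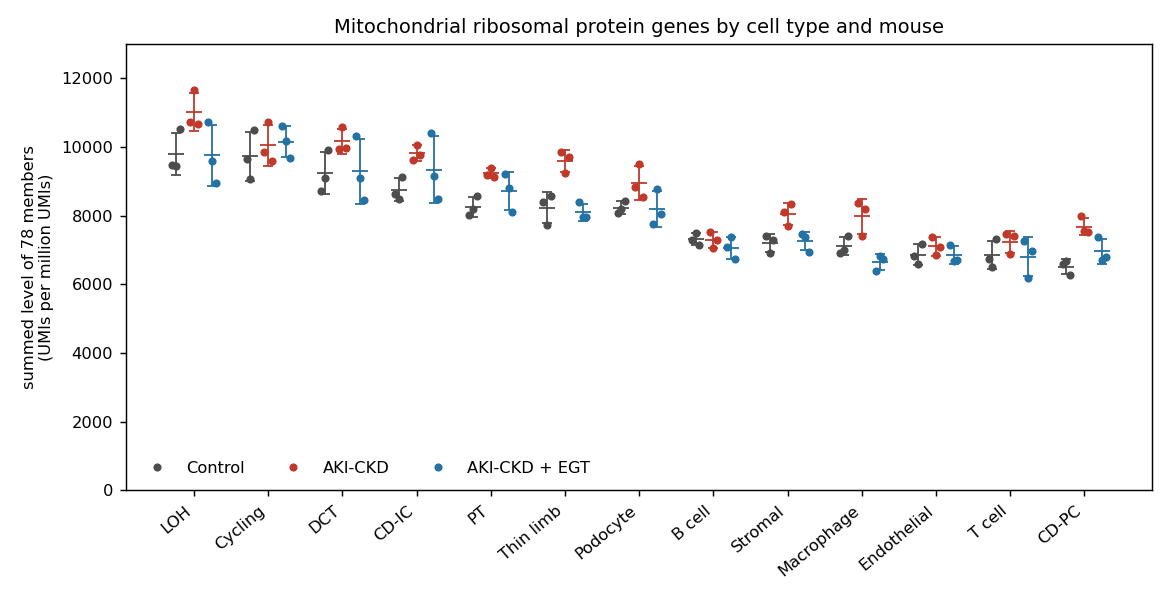
Summed level of the 78 members in CPM without TMM scaling (vertical axis, from 0) for 13 cell types (horizontal axis, in the order of the Control means), with 1 point per mouse and the mean ± SD of 3 mice per group in grey for Control, red for AKI-CKD and blue for AKI-CKD + EGT. LOH cells stand at 9807 ± 610 in Control mice and CD-PC cells at 6518 ± 223, and the AKI-CKD points lie above the Control points in 9 of the 13 types.

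Most members differed less than 2-fold between types, in counts from which background UMIs of other cells were not removed. Over 7 types (PT, LOH, DCT, CD-IC, CD-PC, endothelial cells and macrophages), 29 of the 78 members had their highest Control mean in LOH cells, 18 in DCT cells, 15 in CD-IC cells, 15 in PT cells and 1 in CD-PC cells. None was highest in endothelial cells or macrophages. Mrpl12 was highest in PT cells at 399.9 ± 42.4 CPM and lowest in CD-PC cells at 229 ± 15.5 CPM. Mrpl42 was highest in DCT cells at 420 ± 69.0 CPM and lowest in endothelial cells at 214 ± 6.34 CPM. Mrps18b ran from 54.2 ± 17.4 CPM in CD-IC cells to 22.5 ± 2.45 CPM in CD-PC cells. The highest and lowest of the 7 means lay over 2-fold apart for Mrps6, Mrps18b, Mrps22 and Mrpl35 alone among the 78 members, and the last of these was looked up after its values were seen.

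Mrps6, a small subunit protein with a bacterial counterpart, stood apart. It reached 961 ± 173 CPM in LOH cells and 529 ± 101 CPM in DCT cells of Control mice, against 95.1 ± 12.05 CPM in PT cells, so that LOH and PT cells differed 10.1-fold. In the GENCODE vM21 annotation of GRCm38, exons of Mrps6 overlap on the same strand with Slc5a3, the sodium-coupled myo-inositol transporter that medullary cells use as protection against high osmolality. How the authors' counting divided molecules between the pair is not given in the sources used here. Mrps6 also overlaps a predicted gene, Gm49711, and 4 other members overlap a gene on the same strand, namely Mrpl33 with Gm43809, Mrpl51 with Mir3098, Mrpl53 with Gm42688 and Mrps18c with Gm43511, so the same doubt holds for their values. Slc5a3 itself stood at 215, 236 and 373 CPM in LOH cells of the 3 Control mice and at 9.66, 8.16 and 7.74 CPM in their PT cells. Values of Mrps6 are therefore uncertain as a measure of the ribosomal protein's message. The first place of LOH cells rested on this gene. Without Mrps6, an alternative chosen after the values were seen, the Control level was 9625 ± 732 in cycling cells, 8846 ± 437 in LOH cells, 8711 ± 568 in DCT cells and 8481 ± 326 in CD-IC cells, and CD-PC cells were still last at 6329 ± 190.

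**Figure D2:**
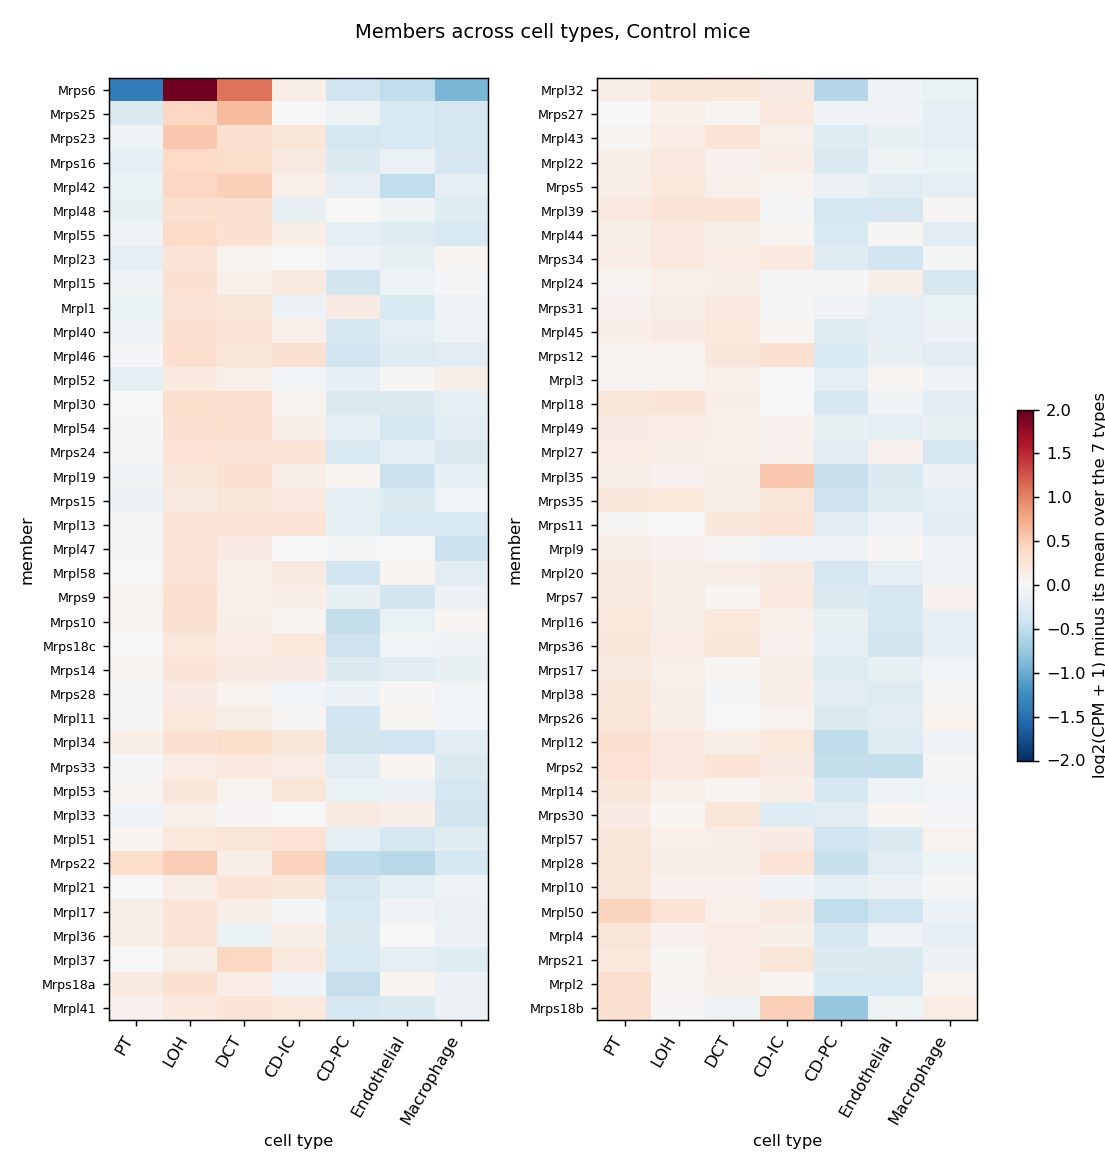
Each of the 78 members (rows, in 2 columns ordered by LOH minus PT) in 7 cell types (columns) of Control mice, with colour for log2(CPM + 1) minus its mean over the 7 types, from blue at −2 to red at 2. Mrps6 at the top left is high in LOH and DCT cells and low in PT cells, while most other rows stay pale.

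Genes for mitochondrial ribosomal proteins are scattered over the mammalian chromosomes, and the letters their promoters share are shown for that reason. RefSeq windows from 250 bases before to 50 bases after the start (build GRCm38.p6) were found for 69 of the 78 members. The windows of Mrps11 and Mrpl46, which lie on opposite strands of chromosome 7, overlap, and both were counted. Both strands were searched for GCGCATGC, the core bound by nuclear respiratory factor NRF1, for CCGGAAG, an Ets element bound by GABPA (also called NRF-2), for AAGATGGC, bound by YY1, and for GGGCGG, the GC box of Sp1. NRF1 and its reverse complement overlap where the letters run on, and the last 3 letters of the Ets element can open a YY1 match, which happened in 0 of the 69 members. The Ets element was in 37.7% of members, 37.1% of the cytosolic ribosomal protein genes and 9.93% of all genes. YY1 letters were in 17.4% of members, 7 of the 70 cytosolic genes and 3.19% of all genes. NRF1 letters were in 11.6% of members, 4.29% of the cytosolic genes and 3.05% of all genes. The GC box was in 49.3% of members, 42 of the 70 cytosolic genes and 38.2% of all genes. The members' windows had 59.0% G and C on average, against 53.8% in all windows. At least 1 of the NRF1, Ets and YY1 letters was present for 38 of the 69 members, which is 55.1%, against 51.4% of the cytosolic ribosomal protein genes and 14.9% of all genes. A match is a description of the letters, and binding was not measured.

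The stretches shown are upstream of the start in the 2 members of highest level that have each match there, with the match in capitals, 5′ to 3′ on the gene's strand. The lines give the gene, the element, the position in GRCm38.p6 and the strand.
Mrpl34, Ets, chr8:71464863-71464922, plus strand: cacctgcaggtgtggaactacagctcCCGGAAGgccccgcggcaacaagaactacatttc
Mrpl52, Ets, chr14:54426836-54426895, plus strand: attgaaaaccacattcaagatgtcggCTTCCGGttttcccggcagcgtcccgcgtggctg
Mrpl33, NRF1, chr5:31613891-31613950, plus strand: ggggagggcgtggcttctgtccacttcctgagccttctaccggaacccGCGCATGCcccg
Mrpl17, NRF1, chr7:105811088-105811147, minus strand: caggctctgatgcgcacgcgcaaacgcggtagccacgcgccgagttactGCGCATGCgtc
Mrps12, YY1, chr7:28741987-28742046, minus strand: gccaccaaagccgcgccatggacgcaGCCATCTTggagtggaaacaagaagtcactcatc
Mrpl36, YY1, chr13:73330949-73331008, plus strand: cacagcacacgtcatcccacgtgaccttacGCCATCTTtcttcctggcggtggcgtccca

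The comparison of AKI-CKD with Control asked what repeated cisplatin left behind. The summed level of the members was higher in PT cells of every AKI-CKD mouse than of any Control mouse. It was 8010, 8185 and 8580 CPM in the 3 Control mice and 9193, 9398 and 9115 in the 3 AKI-CKD mice, a ratio of means of 1.12. On the scale of single genes, the median log2 fold change of the 78 members in PT cells was 0.17, beside −0.01 over all 17946 genes tested, and 74 of the 78 members had a positive log2 fold change. No member was called by edgeR's quasi-likelihood test at an adjusted p under 0.05, with 0.0446% of all genes called in this comparison, and 11 members had an unadjusted p under 0.05, beside 11.3% of all genes. DESeq2 called 3 members, Mrps21, Mrpl33 and Mrpl52, at adjusted p-values of 0.0126, 0.0475 and 0.0497, and it called 1.2% of all genes. In 31 members every AKI-CKD mouse lay above every Control mouse, where 11.7% of all genes did so, and in 0 members below, where 9.38% of all genes did. With plain library totals in place of TMM the members' median was 0.08, and the median of all genes moved to −0.11. Without Control replicate 1, which lost 17.0% of its cells to the mitochondrial limit, the median with TMM was 0.11.

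Mrps21 had the largest log2 fold change in PT cells. It stood at 357, 333 and 424 CPM in Control mice and at 593, 626 and 559 CPM in AKI-CKD mice on the TMM scale. The groups did not overlap. The log2 fold change was 0.68 (SE 0.17), with an edgeR adjusted p of 0.301. Mrps36 followed with 59.0, 70.6 and 54.0 CPM in Control and 91.96, 98.6 and 81.0 CPM in AKI-CKD mice. Its log2 fold change was 0.56 (SE 0.19, edgeR adjusted p = 0.368). Mrpl34, a large subunit protein with a bacterial counterpart, stood at 194, 197 and 230 CPM in Control and at 274, 310 and 302 CPM in AKI-CKD mice. Its log2 fold change was 0.51 (SE 0.17, edgeR adjusted p = 0.36). The coding sequences of these 3 are short, at 261 bases for Mrps21, 306 for Mrps36 and 276 for Mrpl34. The abundant Mrpl12 had a log2 fold change of 0.18 in PT cells, and Mrps30 of 0.01.

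**Figure D3:**
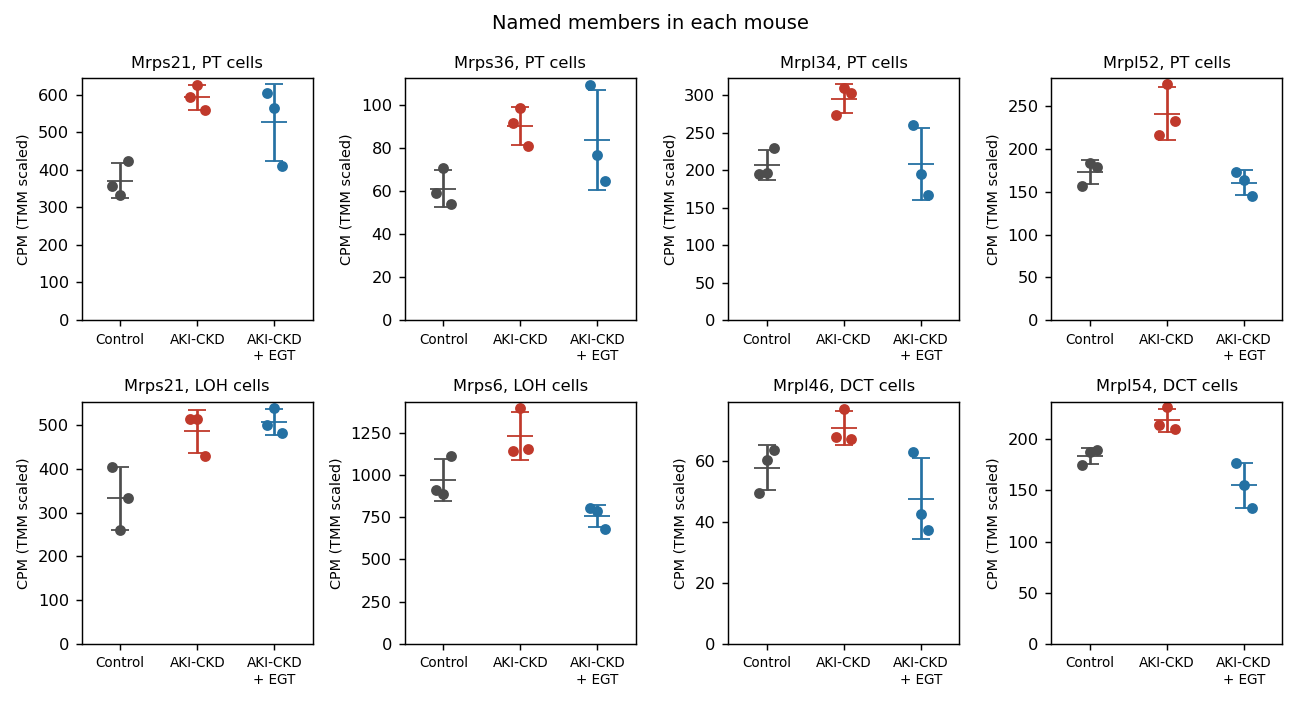
Level of 7 named members in CPM on the TMM scale (vertical axes, from 0) in PT, LOH or DCT cells of each mouse (points, 8 panels), with the mean ± SD of 3 mice per group. Mrps21, Mrps36 and Mrpl34 in PT cells of AKI-CKD mice lie above all Control mice, and Mrps6 in LOH cells of AKI-CKD + EGT mice, at 682 to 802 CPM, lies below all AKI-CKD mice, at 1144 to 1395 CPM.

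LOH and DCT cells had medians of the same sign as PT cells, and DESeq2 called 0 members in either, beside 0.143% and 0.1% of all genes. In LOH cells the summed level was 9471, 9439 and 10511 CPM in Control and 10726, 11671 and 10664 in AKI-CKD mice. The median log2 fold change of the members was 0.08, and 59 of 78 were positive. No member was called, with 0.0191% of all genes called, and 7 members had an unadjusted p under 0.05, beside 11.2% of all genes. The groups did not overlap for 15 members that were higher, beside 8.7% of all genes, and for 3 that were lower, beside 7.73%. The higher ones with the largest changes were Mrps21 with a log2 fold change of 0.54 (SE 0.17, edgeR adjusted p = 0.302), Mrps11 with 0.48 and Mrpl52 with 0.44. The 3 lower ones were Mrps22 at −0.37, Mrpl44 at −0.31 and Mrpl15 at −0.19. Mrpl44, a large subunit protein with a ribonuclease III-like fold, stood at 58.1, 55.9 and 58.0 CPM in Control and at 44.5, 51.7 and 42.4 CPM in AKI-CKD mice. In DCT cells the median log2 fold change with TMM scaling was 0.13, and 64 of 78 were positive. With plain library totals this median was smaller, and it is drawn in the plot of medians under both scalings. With DCT cells named from clusters made without Harmony, the correction for differences between libraries, which were 5117 cells in place of 12610 and had no cluster led by S100g, Calb1 and Klk1, the median was 0.25. No member was called, with 0% of all genes called, and 6 members had an unadjusted p under 0.05, beside 9.88% of all genes. For 21 members the AKI-CKD mice were all higher, beside 8.73% of all genes, and for 0 all lower, beside 7.57%. Mrps21 led again with a log2 fold change of 0.56 (SE 0.16, edgeR adjusted p = 0.413), followed by Mrpl34 with 0.50 and Mrps36 with 0.49.

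In all kept cells the summed level was 8029, 8187 and 8653 CPM in Control and 9182, 9354 and 9106 in AKI-CKD mice. The median log2 fold change with TMM scaling was 0.14 and 72 of 78 members were positive. With plain library totals the median was smaller, as in PT cells, and it is drawn in the plot of medians under both scalings. With TMM scaling the median was 0.078 without Control replicate 1 and 0.085 without AKI-CKD replicate 3. Its range over left-out mice was 0.078 to 0.21. None of the members was called, with 0.0199% of all genes called, 8 had an unadjusted p under 0.05, beside 8.02% of all genes, and DESeq2 called 0, beside 0.64%. The groups did not overlap for 25 members that were higher, beside 8.71% of all genes, and for 0 that were lower, beside 7.08%. In a mixture of cells a different share of a cell type and a different level per cell cannot be told apart, and the share of cells named PT was higher in AKI-CKD mice. That share depends on the naming, since the unnamed cells, most of them with PT markers, were fewest in AKI-CKD mice. In LOH cells the UMIs of PT markers moved with the comparison as well. They took 80444 to 89314 CPM in Control and 33628 to 69514 in AKI-CKD mice, and 70147 to 85972 and 26696 to 69042 in DCT cells. Their part in the members' levels was not tested.

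Across the 13 named cell types, the AKI-CKD mean of the summed level was above the Control mean in 12, with ratios up to 1.18 in CD-PC cells. B cells were the exception at 0.998, and with mt-, ribosomal protein and Malat1 UMIs left out of the total they stood at 1.06, so that 13 of 13 types were above Control. The 3 AKI-CKD mice all lay above the 3 Control mice in 9 types, which are PT, LOH, DCT, CD-IC, CD-PC, thin limb, podocytes, stromal cells and macrophages. In the 6186 unnamed cells the ratio of AKI-CKD to Control went the other way, at 0.903. They are a mixture of clusters, with 3518 cells in Control and 481 in AKI-CKD mice, so the ratio need not compare like cells. The types share the same 9 mice, so they are not separate observations of the treatment. Macrophages stood at 6916, 7013 and 7404 in Control and at 8361, 7407 and 8196 in AKI-CKD mice, so that the groups nearly met. Thin limb, podocyte, stromal, B and T cells had between 17 and 233 cells per mouse, and cycling cells between 49 and 102.

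The comparison of AKI-CKD + EGT with AKI-CKD asked what ergothioneine changed in treated mice. Here the members' medians were negative in all 4 populations, and in PT, DCT and all kept cells their size depended on how the libraries were scaled. In PT cells the summed level was 9220, 8809 and 8120 CPM in the 3 AKI-CKD + EGT mice, against 9193, 9398 and 9115 in AKI-CKD mice, so the groups overlapped. The median log2 fold change of the members was −0.28 with TMM scaling, beside −0.01 over all genes. With plain library totals it was −0.06, and the median of all genes then moved to 0.22. The members' median lay below that of all genes under both. By edgeR no member was called in PT cells, with 0% of all genes called, and 25 members had an unadjusted p under 0.05, beside 15.1% of all genes. DESeq2 called 1, Mrpl52, at an adjusted p of 0.00684, and it called 2.36% of all genes. Counted on the TMM scale, the AKI-CKD + EGT mice all lay lower for 39 members, beside 11.1% of all genes, and all higher for 0, beside 10.1%. The same count with plain library totals is not given, and the plain summed levels overlapped.

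Mrpl52, a large subunit protein specific to mitochondria, had the most negative log2 fold change in PT cells among the members whose groups did not overlap. It stood at 216, 276 and 232 CPM in AKI-CKD mice and at 173, 164 and 145 CPM in AKI-CKD + EGT mice, and Control mice stood at 156, 184 and 179 CPM. The log2 fold change was −0.59 (SE 0.14, edgeR adjusted p = 0.226). Mrpl34 followed with a log2 fold change of −0.51 and Mrpl46 with −0.50. The groups of Mrpl46 nearly met, at 46.5 CPM in AKI-CKD replicate 1 and 46.1 CPM in AKI-CKD + EGT replicate 1. Without AKI-CKD + EGT replicate 3 the log2 fold change of Mrpl46 was −0.31, and without replicate 1 it was −0.71. The levels of Mrpl34 in AKI-CKD + EGT mice were 261, 195 and 167 CPM. Replicate 1 was near the AKI-CKD mice, replicate 2 lay among the Control mice and replicate 3 was below every Control mouse. Mrps21, which led the comparison with Control, stood at 604 and 563 CPM in AKI-CKD + EGT replicates 1 and 2 and stood at 410 CPM in replicate 3, so that the group overlapped with both others.

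LOH cells had the member closest to the threshold. Mrps6 stood at 1144, 1395 and 1155 CPM in AKI-CKD mice and at 802, 784 and 682 CPM in AKI-CKD + EGT mice. Every AKI-CKD + EGT mouse was also below the Control mice, which stood at 912, 884 and 1112 CPM. The log2 fold change against AKI-CKD was −0.71 (SE 0.15, edgeR adjusted p = 0.0703). Without AKI-CKD + EGT replicate 1 the edgeR adjusted p was 0.0324, without a filter on low counts it was 0.00596, and DESeq2 gave 0.00807. These fits called 2.12%, 1.72% and 0.736% of all genes, in that order. The levels of Mrps6 above are on the TMM scale, and without TMM it stood at 1152, 1378 and 1146 CPM in AKI-CKD and at 837, 796 and 679 CPM in AKI-CKD + EGT mice. Also without TMM, the overlapping Slc5a3 stood at 331, 280 and 244 CPM in LOH cells of AKI-CKD mice and at 286, 162 and 136 CPM in those of AKI-CKD + EGT mice, and its groups overlapped. Mrps16 had a log2 fold change of −0.50 and Mrpl52 of −0.49, while Mrpl44 at 0.30 and Mrps35 at 0.28 went the other way without overlap of the groups. Over the list the median was −0.14 in LOH cells, or −0.11 with plain library totals, and 15 of 78 members were positive. The edgeR test called no member, with 0.258% of all genes called, and 9 had an unadjusted p under 0.05, beside 13.6% of all genes. The AKI-CKD + EGT mice all lay lower for 19 members, beside 8.55% of all genes, and all higher for 2, beside 8.22%.

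In DCT cells the median log2 fold change was −0.19, with 11 of 78 members positive. It was −0.09 with plain library totals, −0.29 without AKI-CKD + EGT replicate 1 and −0.14 without replicate 3. None of the members was called, with 0% of all genes called, and 11 had an unadjusted p under 0.05, beside 13.2% of all genes. DESeq2 called Mrpl52 and Mrpl54, which makes 2 members, beside 0.636% of all genes. Without AKI-CKD + EGT replicate 1 edgeR called 1, Mrpl46, at an adjusted p of 0.0464, beside 1.23% of all genes. The mice of AKI-CKD + EGT all lay lower for 18 members, beside 8.35% of all genes, and all higher for 0, beside 9.11%. Mrpl46 had a log2 fold change of −0.58 (SE 0.19, edgeR adjusted p = 0.293), Mrpl54 of −0.50 and Mrpl52 of −0.49. Mrpl54 stood at 214, 231 and 210 CPM in AKI-CKD mice and at 177, 155 and 133 CPM in AKI-CKD + EGT mice. In all kept cells the median was −0.30 and 1 of 78 members was positive, and without AKI-CKD + EGT replicate 3 the median was −0.15. By edgeR no member was called, with 0.00496% of all genes called, 27 had an unadjusted p under 0.05, beside 12.7% of all genes, and DESeq2 called 1, Mrpl52, beside 1.26%. The groups did not overlap for 36 members that were lower, beside 9.73% of all genes, and for 0 that were higher, beside 8.54%. Mrpl52 had the largest change there too, with a log2 fold change of −0.58 (SE 0.14, edgeR adjusted p = 0.318).

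The mice that received ergothioneine differed among themselves. AKI-CKD + EGT replicate 1 had 9227 CPM for the members in all kept cells, replicate 2 had 8697 and replicate 3 had 8100. Replicate 3 lost the most cells to the mitochondrial limit and had the smallest share of PT cells. Without it, the median log2 fold change against AKI-CKD in PT cells was −0.15 in place of −0.28, and without replicate 1 it was −0.39.

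Against Control, the direction of the members' median in AKI-CKD + EGT mice depended on the scaling. The median log2 fold change of the members in PT cells was −0.09 with TMM scaling and 0.04 with plain library totals, and the summed level gave a ratio of means of 1.06. In all kept cells the medians were −0.14 and 0.02, with a ratio of 1.05. They were −0.07 in LOH cells and −0.08 in DCT cells with TMM, and with plain totals −0.02 and −0.03. Without AKI-CKD + EGT replicate 3 the median with TMM was 0.03 in PT cells and −0.0092 in all kept cells, and without replicate 1 it was −0.20 and −0.26. In LOH and DCT cells it was −0.025 and −0.026 without replicate 3 and −0.11 and −0.14 without replicate 1, and in DCT cells it was −0.039 without replicate 2. The Control mice moved it as well. Without Control replicate 1 it was −0.18 in PT and −0.21 in all kept cells, without Control replicate 2 it was −0.054 in PT cells, and without Control replicate 3 it was −0.039 in PT, −0.072 in all kept and −0.033 in DCT cells. The edgeR test called no member in any of the 4 populations, beside 0.00496% of all genes called in all kept cells and 0% in PT, LOH and DCT cells. DESeq2 called 0 as well, beside 0.556% of all genes in all kept cells, 0.529% in PT, 0.0383% in LOH and 0% in DCT cells. Unadjusted p-values under 0.05 were found for 4 members in all kept cells, 3 in PT, 4 in LOH and 2 in DCT cells, beside 7.94%, 7.14%, 6.13% and 4.66% of all genes.

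**Figure D4:**
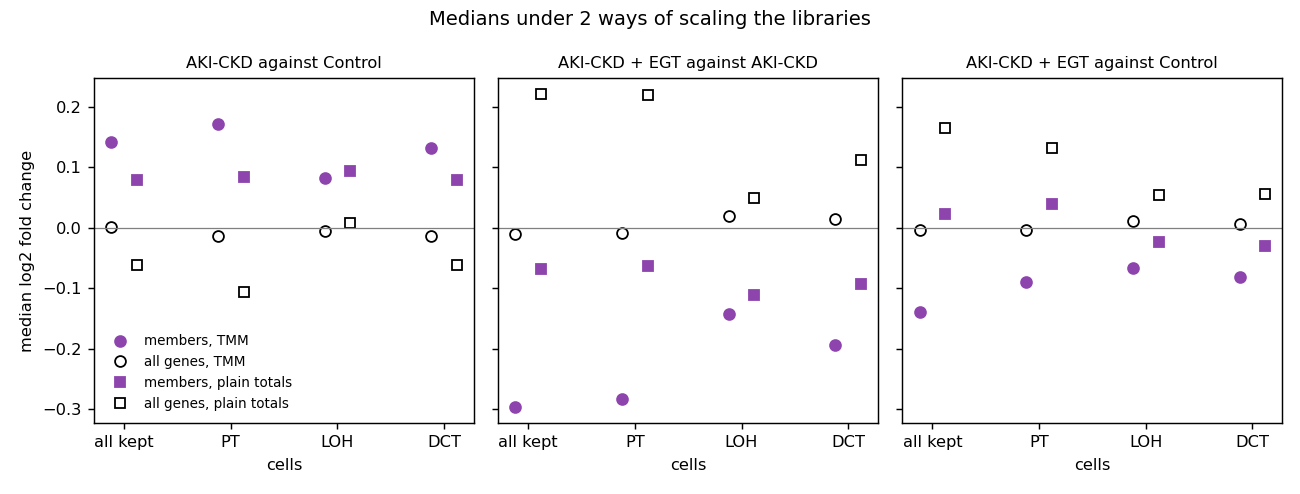
Median log2 fold change (vertical axis) of the 78 members (filled) and of all genes tested (open) in 4 cell populations, for 3 comparisons, with TMM scaling (circles) and with plain library totals (squares). For AKI-CKD + EGT against AKI-CKD in PT cells the members' median is −0.28 with TMM and −0.06 with plain totals, and against Control it changes sign from −0.09 to 0.04.

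The difference of change between cell types was tested within mice. Of the 78 members, 0 were called for LOH against PT cells in their change from Control to AKI-CKD, with 0.00767% of all genes called, and 4 had an unadjusted p under 0.05, beside 8.79% of all genes. None was called for DCT against PT cells in that comparison, with 0.00767% of all genes called by edgeR, and 0 members had an unadjusted p under 0.05, where 1173 of the 13038 genes tested had one. For AKI-CKD + EGT against AKI-CKD no member was called for LOH against PT cells, with 0.0153% of all genes called, or for DCT against PT cells, with 1.01% of all genes called, and 4 and 1 members had an unadjusted p under 0.05, beside 11.2% and 13.7% of all genes. A member that was not called is not thereby shown to change alike in these cell types. Mrps6 was the closest. Its change in LOH cells was lower than in PT cells by 0.98 on the log2 scale, as a difference of −0.98 (SE 0.21, edgeR adjusted p = 0.0556), and for DCT against PT cells the difference was −0.69 (SE 0.21, edgeR adjusted p = 0.121). The call for LOH against PT cells depended on single mice: the adjusted p was 0.0289 without Control replicate 1, 0.0262 without Control replicate 3 and 0.000684 without AKI-CKD + EGT replicate 1, in fits that called 0.636%, 0.56% and 3.4% of all genes. For DCT against PT cells it was 0.00291 without AKI-CKD + EGT replicate 1, with 8.33% of all genes called.

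In PT cells the subunits had medians of the same sign in the comparisons of AKI-CKD with Control and of AKI-CKD + EGT with AKI-CKD. There the median log2 fold change for AKI-CKD against Control was 0.16 for the 51 large subunit members and 0.21 for the 27 members counted as small subunit, and the same 0.21 for the 26 without Mrps36. It was −0.31 and −0.22 for AKI-CKD + EGT against AKI-CKD, and −0.23 for the small subunit without Mrps36. For AKI-CKD + EGT against Control it was −0.12 for the large subunit and 0.011 for the small, or −0.0044 without Mrps36. Members counted by number as having a bacterial counterpart had medians of 0.18 for AKI-CKD against Control and −0.29 for AKI-CKD + EGT against AKI-CKD. Those counted as specific to mitochondria had 0.17 and −0.27. The differences between these subgroups were not tested.

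The cytosolic ribosomal protein genes, 91 by symbol, had medians of the same sign as the members and of larger size in all 4 populations for AKI-CKD against Control and for AKI-CKD + EGT against AKI-CKD, with TMM scaling. Their medians for AKI-CKD + EGT against Control were −0.11 in all kept cells and −0.08 in PT cells, beside −0.14 and −0.09 for the members. In PT cells 88 of the 90 tested had a positive log2 fold change for AKI-CKD against Control, with a median of 0.38 and with 0 called. For AKI-CKD + EGT against AKI-CKD the median was −0.46, with 0 of 90 positive. Their summed level was 71873, 79385 and 73256 CPM in PT cells of Control mice, 90582, 98731 and 92655 after cisplatin alone, and 84341, 77230 and 72690 after cisplatin with ergothioneine. In LOH cells 2 of 88 were called lower with ergothioneine than without it after cisplatin, beside 0.258% of all genes called. They were Rps28 with a log2 fold change of −0.86 (edgeR adjusted p = 0.0383) and Rps27rt with −1.22 (edgeR adjusted p = 0.0368). Rps27rt is a near-copy of Rps27 whose reads may be shared with it.

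The 13 transcripts of the mitochondrial genome had medians of the opposite sign. They are the messages that the mitochondrial ribosome translates. In PT cells 0 of 13 had a positive log2 fold change for AKI-CKD against Control, with a median of −0.50 and with 0 called, and 12 of 13 were positive for AKI-CKD + EGT against AKI-CKD, with a median of 0.60. The mice of 1 group differed widely. Their summed level in PT cells was 59211, 38458 and 14612 CPM in Control mice, 30306, 25699 and 19178 after cisplatin alone, and 34210, 40969 and 54823 after cisplatin with ergothioneine. Control replicate 3 was therefore below every AKI-CKD mouse, while Control replicate 1 was above every other mouse. In LOH cells 1 of 13 was called, mt-Nd6, with a log2 fold change of 1.76 for AKI-CKD + EGT against AKI-CKD (edgeR adjusted p = 0.0383), beside 0.258% of all genes. The limit on mitochondrial UMIs acts on these transcripts directly, so their levels are those of the cells that passed it.

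The other genes of mitochondrial translation had medians from 0.00 to 0.19, beside 0.17 for the members. Taken in PT cells for AKI-CKD against Control, the 5 further proteins of the mitochondrial ribosome with other symbols (Dap3, Ptcd3, Chchd1, Aurkaip1 and Gadd45gip1) had their median log2 fold change at 0.19, and 5 of 5 were positive. The 19 assembly factors, such as the methyltransferase Nsun4 and the helicase Dhx30, had 0.11 with 16 positive. The 11 translation factors, such as the elongation factors Tufm and Gfm1, had 0.08 with 8 positive. The 17 mitochondrial tRNA synthetases had 0.00 with 9 positive, the 4 genes for messenger RNA stability and membrane insertion 0.07 with 2 positive and the 4 transcription genes, Polrmt and Tfam among them, 0.05 with 3 positive. For AKI-CKD + EGT against AKI-CKD in PT cells the medians ran from −0.30 for the 5 further ribosomal proteins to −0.11 for the synthetases. No gene of these lists was called in any of the 4 populations, by edgeR, in any of the 3 comparisons. Of the lists kept as a check on the cells, 12 dissociation-induced genes such as Fos and Jun had their median log2 fold change at 0.21 in PT cells for AKI-CKD against Control, 8 injury genes such as Havcr1 and Lcn2 had 0.11 with Cdkn1a called, and 11 macrophage genes had −0.24. They had −0.09, 0.15 and 0.35 for AKI-CKD + EGT against AKI-CKD, with 0 called. Their part in the members' levels was not tested.

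**Figure D5:**
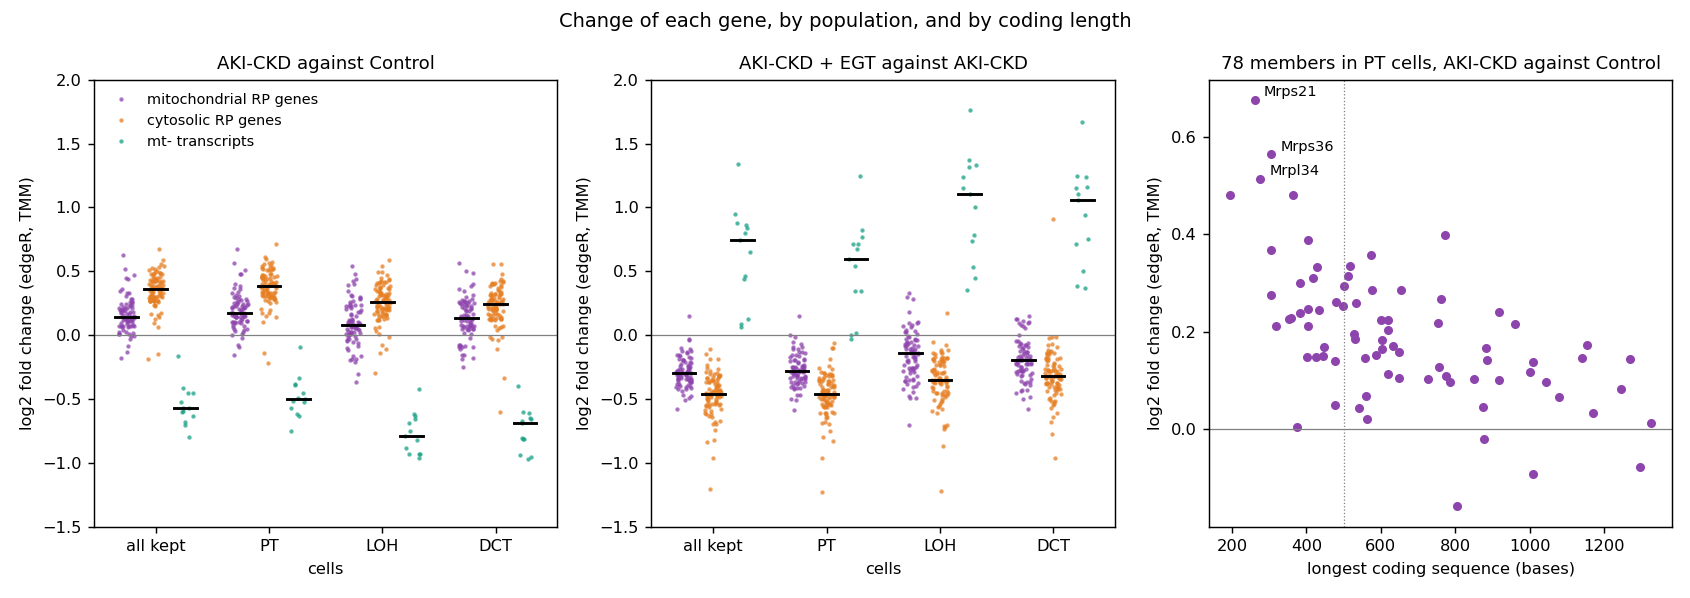
Left and middle, log2 fold change of each mitochondrial ribosomal protein gene (purple), cytosolic ribosomal protein gene (orange) and mt- transcript (green) in 4 cell populations for AKI-CKD against Control and for AKI-CKD + EGT against AKI-CKD, with medians as black bars (in PT cells 0.17, 0.38 and −0.50 on the left and −0.28, −0.46 and 0.60 in the middle). Right, the log2 fold change of the 78 members in PT cells for AKI-CKD against Control by the length of the longest coding sequence in bases, with Mrps21, Mrps36 and Mrpl34 named and a dotted line at 500 bases.

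In PT cells members with short coding sequences had medians of larger size for AKI-CKD against Control and for AKI-CKD + EGT against AKI-CKD. Coding length was looked at after the values were seen. All 78 members had a coding length in GENCODE vM21, from 195 bases for Mrpl33 to 1326 bases, with a median of 582, and the median over the genes tested in all kept cells was 1398 bases. In PT cells the 27 members of at most 500 bases had a median log2 fold change of 0.25 for AKI-CKD against Control, and the 51 longer members 0.15. Spearman's rho between coding length and log2 fold change over the 78 members was −0.61, as a description across genes of the same libraries. Over all 13495 genes with a coding length it was −0.29, and the 1205 genes of at most 500 bases had a median of 0.19, against −0.01 for the longer ones. For AKI-CKD + EGT against AKI-CKD the signs were turned, with rho at 0.45 over the members and 0.29 over all genes. Medians were then −0.33 for the 27 short and −0.25 for the 51 longer members, beside −0.23 and −0.02 for all genes. The part of coding length in the members' change was not tested.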

How the data were processed

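Per the labels and the study's methods, single kidney cells of 9 mice were captured in droplets (DNBelab C-TaiM4) with poly(dT) primers. The authors deposited raw UMI counts per gene and barcode, made with PISA 1.0 per the file headers, and the submitters' processing notes name GRCm39. Aligner, annotation and cell calling are not given in the sources used here. Barcodes are running names, so shared names between libraries do not show shared cells.

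Cells with at least 1000 UMIs, 500 genes and at most 15% mitochondrial UMIs were kept. Counts were log-normalized, and 2000 variable genes other than the members, ribosomal protein, respiratory chain, mt- and other mitochondrial translation genes and Malat1, 30 principal components, a Harmony correction by library (own implementation) and Leiden clustering at resolution 1.1 gave clusters. A cluster could be named when at least 3 of a type's markers were at least 2-fold higher than in other cells (1.5-fold for PT). These thresholds were set after the clusters were seen. Further rules left 3 clusters unnamed that passed them. In 1, markers of another type led the top 10 genes, in 1 haemoglobin genes went with PT markers, and 1 was led by long neuronal genes. Cells in clusters under 50 cells stayed unnamed too. Scrublet called only 2 doublets by its own threshold, for a reason that was not tested, so an alternative left out each library's top 6% of cells by score.

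UMI counts were summed per mouse and population and tested by edgeR 4.0.16 (filterByExpr, TMM, quasi-likelihood, all 9 mice in 1 fit, Benjamini-Hochberg over all genes tested). The difference between cell types was tested with mouse as a block. DESeq2 1.42.0 was an alternative. The fits were tested on simulated counts for AKI-CKD against Control, with 200 genes changed by 1 or by 2 on the log2 scale. At 1, the genes recovered were 91 in PT, 70 in all kept, 77 in LOH and 61 in DCT cells. At 2, they were 159, 145, 189 and 171, in that order. Unchanged genes called were 6, 6, 9 and 3 at 1, and 9, 12, 15 and 13 at 2, in the same order. Smaller changes were not simulated, so a member that was not called is not thereby shown to be unchanged. The named members are the 6 highest and 3 lowest in level, in each population and comparison the 3 most changed (or fewer) per direction among those with an average log2 CPM of at least 4 whose groups do not overlap, every called member, and Mrpl12, Mrps18a, Mrps18b, Mrps18c, Mrps30, Mrps36 and Mrpl58. The members and lists were chosen with earlier results of these data known. Whether groups overlapped for a gene was judged on the TMM scale, and counts of such genes with plain library totals are not given. The p-values set a difference between groups against the spread between these mice. Those for differences between cell types, with mouse as a block, set it against the spread left within mice. Promoter sequences are from RefSeq (GRCm38.p6).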

Additional observations from a re-analysis of the deposited data

How the results depend on the processing

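Over the 4 populations, 3 comparisons and the tests between cell types, the number of members called was 0 in 223 of the 236 alternatives. With DESeq2 the number was 3 in PT cells for AKI-CKD against Control (Mrps21, Mrpl33 and Mrpl52). For ergothioneine-treated mice against AKI-CKD it was 1 in all kept cells and 1 in PT cells (Mrpl52 in both), 1 in LOH cells (Mrps6) and 2 in DCT cells (Mrpl52 and Mrpl54). In that comparison, without a filter on low counts 1 member was called in LOH cells (Mrps6), and with at most 10% mitochondrial UMIs 1 for the difference between LOH and PT cells (Mrps6, beside 0.384% of all genes). Leaving out 1 mouse at a time, the number ranged from 0 to 1 in LOH cells, in DCT cells and in both differences between cell types, each time when ergothioneine-treated mice were compared with AKI-CKD. With plain library totals the members' median for AKI-CKD + EGT against AKI-CKD was −0.069 in all kept cells and −0.063 in PT cells, and against Control it changed sign to 0.022 and 0.039, since TMM sets the median gene near 0 while plain totals put it at 0.22 against AKI-CKD and at 0.17 and 0.13 against Control. Without AKI-CKD + EGT replicate 3 the median against Control in PT cells changed sign to 0.030, in a range over left-out mice of −0.20 to 0.030. DCT cells named without Harmony gave a median of 0.25 for AKI-CKD against Control. With UMIs of mt-, ribosomal protein and Malat1 transcripts left out of the denominator, the ratio of summed levels in LOH cells for AKI-CKD + EGT against Control changed from 0.995 to 1.01. This ratio also passed 1 in B cells (0.966 to 1.006), endothelial cells (0.997 to 1.006) and podocytes (0.996 to 1.013). It did so in T cells (0.993 to 1.037) and thin limb cells (0.983 to 1.0004) as well. Without Mrps6, chosen after the values were seen, the Control level moved by more than its SD between mice in 2 of 13 cell types, from 9807 to 8846 CPM in LOH cells and from 8234 to 8009 in podocytes. Without Mrps36, also chosen afterwards, the median of the members counted as small subunit in PT cells for ergothioneine-treated mice against Control went from 0.011 to −0.0044. Of the 435 alternatives for single named members, 426 kept direction and side of the threshold and 9 passed it. The cause of these changes was not tested beyond the scaling.

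The replicate numbers name separate animals. Deviations of mice with the same number correlated between −0.46 and 0.37 in all kept cells, with 2 of 9 pairs over 0.1. Those of mice with different numbers correlated between −0.41 and 0.47. With the replicate block 0 members were called in every population and comparison, beside 0% of all genes in each, with medians in PT cells of 0.17, −0.28 and −0.09. Leaving out 1 mouse, the median for AKI-CKD against Control ranged from 0.11 to 0.24 in PT cells.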
